A study of Mus musculus with 36 samples.

Results

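Refed livers were compared with fed livers in wild-type mice, to ask which transcripts were back at their fed level 6 h after food was returned, which had passed it and which were still away from it. The comparison used 12 of the 36 liver RNA libraries of the series, 6 from refed and 6 from fed mice, chosen by the labels alone. All mice were males on a C57Bl/6J background, aged 16 weeks and kept on chow. Fed wild-type mice had free access to food, fasted wild-type mice went 16 h without it, and refed wild-type mice were given chow for 6 h after a 16 h fast. Each library was the liver of 1 mouse, each mouse gave 1 state, and no mouse was followed through the cycle. The 6 fasted wild-type livers served only to say which way each gene had moved on fasting, and heterozygous *Pik3r1* WT/Y657* mice, which carry a premature stop codon in the p85α subunit of phosphoinositide 3-kinase in every tissue, gave the same refed against fed contrast in 12 other mice.

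In the fed liver insulin drives glucose into glycogen and fatty acids through SREBP1 and ChREBP, while in fasting glucagon, glucocorticoids and fatty acids drive glucose production and, through PPARα, fatty acid oxidation and ketogenesis. When food returns, insulin and amino acids act within minutes, whereas transcripts reach a new level only as fast as they are made and degraded. Liver transcripts also follow a daily rhythm set by the clock genes and by feeding time. By the study's methods, fed livers were taken before the overnight fast and refed livers after 22 h of fasting and refeeding; the clock hour of each collection is not given in the sources used here.

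Total counts per library lay between 11140550 and 15559291 in fed mice, between 9544988 and 19542778 in refed mice and between 8839481 and 14482784 in fasted mice. Levels are given as CPM, each count over its library's total after TMM scaling. A gene was called at an adjusted p under 0.05 in the quasi-likelihood test of edgeR, adjusted by Benjamini-Hochberg over 13945 tested genes, and every adjusted p below is from that fit unless another is named. Fed mice ALC_WT_847 and ALC_WT_849 stood apart by their acute-phase genes, and results that rest on them are given with and without them. Mice are named as in the labels, ALC for fed, ONF for fasted and RF6 for refed, with the mouse number last. The refed mice came in lower (RF6_WT_815, RF6_WT_816, RF6_WT_828) and higher (RF6_WT_896, RF6_WT_900, RF6_WT_901) mouse numbers, and the fed mice lay between these series, from ALC_WT_847 to ALC_WT_860, so that mouse number and feeding state cannot be told apart. The second library index in the labels also followed feeding state, with D505 in all 6 refed and 1 fed library (ALC_WT_856) and D504 in the other 5 fed libraries, and its part in the results was not tested. Between the lower and higher numbers of refed mice edgeR called 0 of 14546 genes, with 732 at an unadjusted p under 0.05. Refed mouse RF6_WT_896 differed from the other refed mice by a chi-square per degree of freedom of 101 to 147, against 14 to 37.4 among the other 5, and no pair of libraries agreed within sampling noise. Hepatocyte markers were abundant in all 12 mice, with a summed level of 71024 to 103816 CPM over 9 genes.

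Refeeding for 6 h left much of the liver transcriptome away from its fed level. Refed and fed mice differed in 3839 genes (27.5% of those tested), 1846 higher (13.2%) and 1993 lower (14.3%) in refed mice, and the median log2 fold change of all tested genes was 0.016. The difference passed 2-fold in 214 of the higher and 260 of the lower genes. In 1953 genes (14%) the CPM values of the 6 refed and 6 fed mice did not overlap, and 1881 of these were called.

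On fasting, 4464 genes (32%) had been called, and these were sorted by where they stood after refeeding. Of them, 1736 (38.9%, or 12.4% of all tested genes) had not recovered, being called in refed against fed mice in the direction of fasting. A further 1647 (36.9%, or 11.8%) had returned, with no call against fed mice and a called move back from the fasted level, and for 1326 of these the 95% interval of the log2 fold change lay within 1.5-fold of fed. Another 185 (4.14%, or 1.33%) had overshot, being called on the other side of the fed level, and the remaining 20.1% could not be decided. A further 1918 genes (13.8%) differed from fed mice without a call on fasting, 1021 of them higher, and are named new on refeeding. That name gives the class alone, since 760 of them showed no call between refed and fasted mice either. Called steps since the fast were 604 against and 554 along the uncalled direction of fasting. Of the genes that had not recovered, 297 had moved back by a called step, 1339 showed no call between refed and fasted mice (a contrast in which 30.2% of all tested genes were called), and 100 had moved further in the direction of fasting. The fasted, refed and fed contrasts share mice, so these counts sort genes and are not independent of each other.

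**Figure D1:**
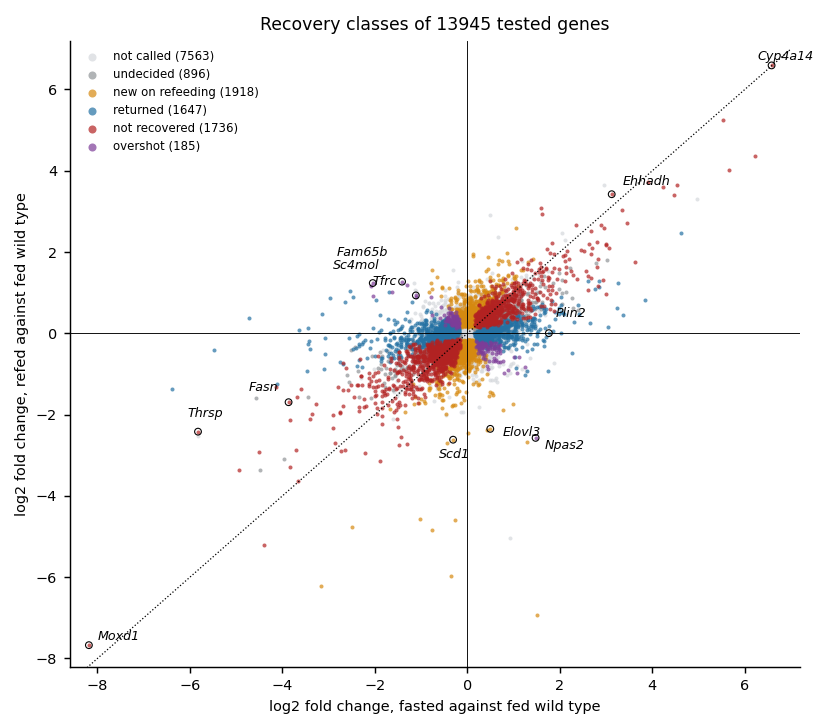
Log2 fold change of each tested gene in fasted against fed wild-type mice (horizontal) and in refed against fed wild-type mice (vertical), coloured by recovery class, with 6 mice in each state and the dotted line marking no change since the fast. Genes that had not recovered (1736) spread along the dotted line up to *Cyp4a14* and down to *Moxd1*, and genes that had returned (1647) lie along the horizontal axis.

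Genes of fatty acid oxidation and ketogenesis, most of them PPARα targets, were mostly above fed mice, with the highest median of the pathway lists. Of 40 tested, 32 were higher and 0 lower in refed mice, with a median log2 fold change of 0.94, and all 40 had risen on fasting, with a median of 1.56. In this list 32 genes had not recovered, 7 had returned and 1 was undecided. *Cyp4a14*, a fatty acid ω-hydroxylase (GRCm38 chr4:115486200-115496142, minus strand), lay at 17.1, 29 and 148 CPM (lowest, median and highest) in fed mice, at 2870, 4864 and 5947 CPM in refed mice, and at 3720, 4489 and 4989 CPM in fasted mice. Every refed mouse was above every fed mouse, and the refed range enclosed the fasted one. Its log2 fold change in refed against fed mice was 6.59 (SE 0.53, adjusted p = 3.2e-10, edgeR), beside 6.58 on fasting.

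*Ehhadh*, the peroxisomal bifunctional enzyme (chr16:21761287-21787844, minus strand), lay at 180, 272 and 316 CPM in fed mice and at 1235, 3170 and 3928 CPM in refed mice, a log2 fold change of 3.42 (SE 0.26, adjusted p = 9.3e-11, edgeR). The refed mice were again all above the fed mice, and the 3 of higher number (3403 to 3928 CPM) were above the 3 of lower number (1235 to 2937 CPM), although this difference within the refed group did not pass (edgeR, adjusted p = 0.83). *Hadhb*, the β-subunit of the mitochondrial trifunctional protein, lay at 83.9, 90.8 and 99.2 CPM in fed mice and at 151, 190 and 206 CPM in refed mice (log2 fold change 1.01, SE 0.09, adjusted p = 1.8e-10, edgeR). *Bnip3*, a mitophagy receptor, lay at 110, 115 and 131 CPM in fed mice, at 208, 238 and 248 CPM in refed mice and at 190, 240 and 267 CPM in fasted mice (log2 fold change against fed 1.0, SE 0.09, adjusted p = 8.4e-10, edgeR). *Retsat*, retinol saturase, was at 210, 326 and 390 CPM in fed mice and at 1230, 1844 and 2274 CPM in refed mice (log2 fold change 2.52). The refed and fed mice did not overlap for any of these genes.

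The ω-hydroxylases *Cyp4a10* (log2 fold change 5.25) and *Cyp4a31* (3.73), the acyl-CoA thioesterases *Acot3* (4.36), *Acot2* (3.60) and *Acot1* (3.41), the peroxisomal fatty acid transporter *Abcd2* (3.03), the enoyl-CoA isomerase *Ech1* (1.24), the pantetheinase *Vnn1* (2.71), the lipoprotein gene *Apoa4* (2.93) and the laminin chain *Lamb3* (2.60) were also called higher, with no overlap. The *Cyp4a* and *Acot* genes are close copies of each other, and the division of reads among them is uncertain. *Fgf21*, the fasting hepatokine, lay at 0.245, 0.423 and 0.741 CPM in fed mice and at 1.75, 2.46 and 22.7 CPM in refed mice, with mouse RF6_WT_900 far above the others. Its log2 fold change was 3.65 (SE 0.99, adjusted p = 0.0059, edgeR), and without refed mouse RF6_WT_900 it was 2.31 with adjusted p = 0.075 (edgeR).

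Other fasting genes were back at the fed level. *Plin2*, the lipid droplet coat protein (chr4:86648386-86670060, minus strand), lay at 306, 383 and 414 CPM in fed mice, at 1074, 1186 and 1510 CPM in fasted mice and at 328, 353 and 425 CPM in refed mice. The refed and fed mice overlapped, with 1 refed mouse just above the highest fed one, and the 95% interval of the log2 fold change ran from -0.22 to 0.23. *Tgoln1*, a trans-Golgi protein, lay at 150, 172 and 179 CPM in fed mice, at 370, 381 and 402 CPM in fasted mice and at 119, 150 and 181 CPM in refed mice, a log2 fold change against fed of -0.16 (adjusted p = 0.12, edgeR). Without refed mouse RF6_WT_896 that value was -0.22 and passed (edgeR, adjusted p = 0.029). *Tmem56* (0.19), *Wrnip1* (0.18) and the angiotensin receptor gene *Agtr1a* (0.19) were also within 1.5-fold of fed. They had risen on fasting by 1.40, 1.37 and 1.03 on the log2 scale. Returned genes were picked for naming among those within 1.5-fold of fed, by the smallest p on fasting. Both traits therefore follow from the choice. *Agtr1a* passed once fed mouse ALC_WT_850 was left out (log2 fold change 0.22, adjusted p = 0.040, edgeR).

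**Figure D2:**
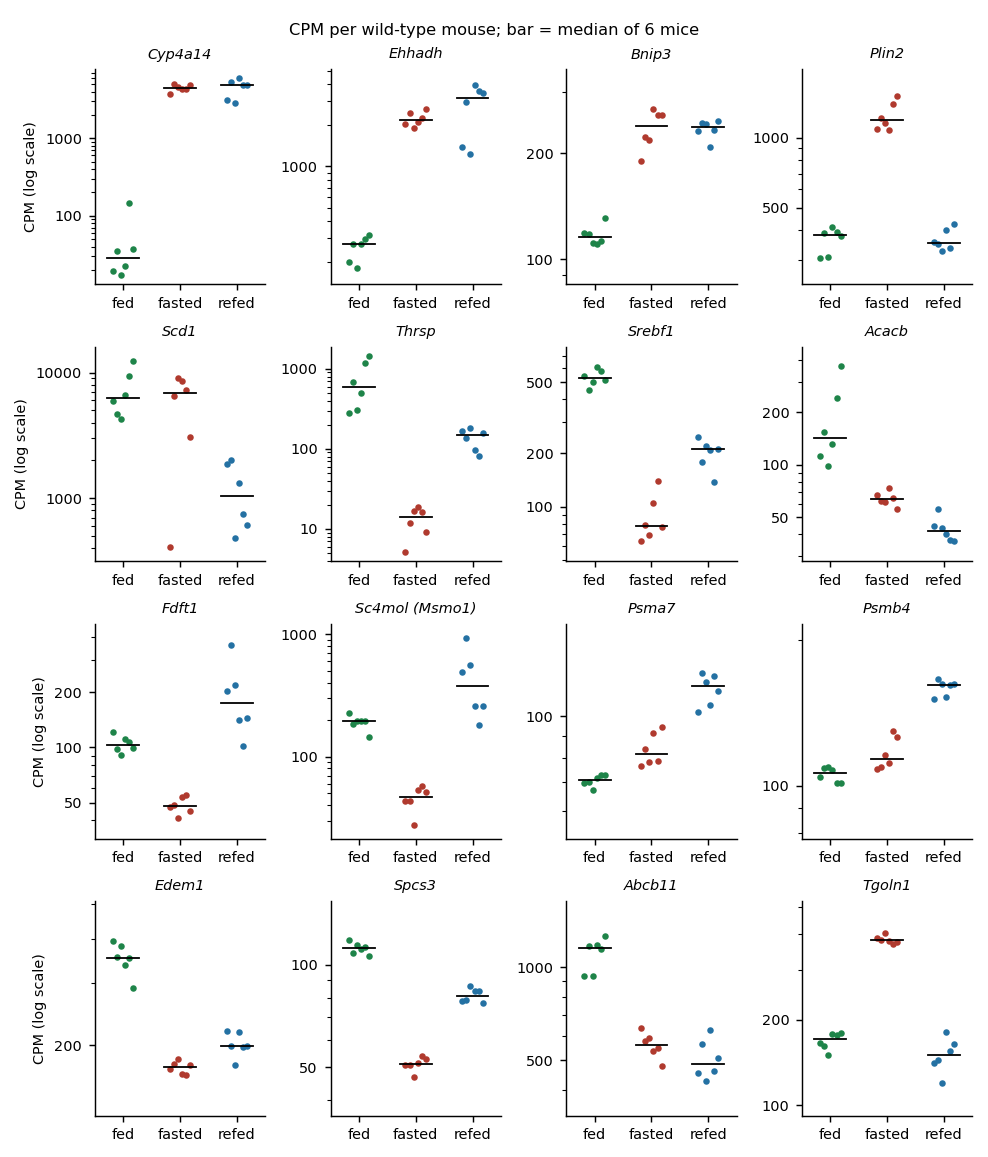
CPM of 16 genes in each of the 6 fed, 6 fasted and 6 refed wild-type mice, on log axes that differ between panels, with mice in order of number from left to right in each state and a bar at the median. Refed mice match the fasted level for *Cyp4a14* (medians 4864 and 4489 CPM), the fed level for *Plin2* (353 and 383 CPM), and exceed both states for *Psmb4* (162 against 106 and 113 CPM).

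Lipogenic genes remained below fed mice. Of 23 tested genes linked to SREBP1, 16 were lower and 2 higher in refed mice, with a median log2 fold change of -0.81 after -1.52 on fasting; 14 had not recovered, 4 had returned and 4 were new on refeeding. *Srebf1*, the regulator itself (chr11:60105013-60222581, minus strand), lay at 451, 526 and 608 CPM in fed mice, at 64.3, 78.0 and 139 CPM in fasted mice and at 137, 209 and 247 CPM in refed mice. All refed mice were below all fed mice, and 45.5% of the log2 change on fasting had been reversed (refed against fed -1.41, SE 0.19, adjusted p = 1.8e-06, edgeR). *Fasn*, fatty acid synthase, lay at 961, 1616 and 3006 CPM in fed mice and at 370.5, 504.4 and 1045 CPM in refed mice, with 1 refed mouse (RF6_WT_816) among the fed values (-1.70, SE 0.36, adjusted p = 0.00066, edgeR). *Acaca*, acetyl-CoA carboxylase 1, lay at 225, 280.5 and 440.7 CPM in fed mice and at 105, 126 and 172 CPM in refed mice, with no overlap (log2 fold change -1.29). *Thrsp*, a lipogenic cofactor, lay at 283, 589 and 1456 CPM in fed mice, at 5.12, 14 and 18.9 CPM in fasted mice and at 81.8, 147 and 181 CPM in refed mice, so that 58.5% of its fall had been reversed (refed against fed -2.42).

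*Scd1* and *Elovl3* followed another course, since neither was called on fasting and both fell on refeeding. *Scd1*, stearoyl-CoA desaturase, lay at 4249, 6241 and 12398 CPM in fed mice, at 408, 6851 and 9131 CPM in fasted mice and at 485, 1038 and 1998 CPM in refed mice. Every refed mouse was below every fed mouse, while the fasted mice spread over the whole range (refed against fed -2.62, SE 0.51, adjusted p = 0.00029, edgeR). *Elovl3*, a fatty acid elongase under circadian control, lay at 109, 181 and 262 CPM in fed mice and at 13.9, 34.9 and 50.9 CPM in refed mice (log2 fold change -2.35). *Acacb*, the carboxylase that restrains mitochondrial fatty acid entry, had a log2 fold change of -2.10, and *Pklr*, the glycolytic pyruvate kinase and a ChREBP target, of -1.31. *Dgat2*, for triglyceride synthesis (0.08, adjusted p = 0.58, edgeR), and *Mlxipl*, which encodes ChREBP (-0.16, adjusted p = 0.55, edgeR), did not pass. With the 3 lower-numbered refed mice alone 8 genes of the list were lower, and with the 3 higher-numbered ones 14, while without fed mouse ALC_WT_860 alone 8 were lower and the median was -0.49. *Pklr* did not pass with the higher-numbered refed mice alone (edgeR, adjusted p = 0.050).

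Cholesterol synthesis genes had returned, and some had passed the fed level. Of 25 tested SREBP2-linked genes, 22 had fallen on fasting, with a median log2 fold change of -1.88; after refeeding the median was 0.14, 17 had returned, 4 had overshot and 1 had not recovered. *Sc4mol* (now *Msmo1*), a sterol demethylase, lay at 146, 194 and 228 CPM in fed mice, at 27.8, 47.1 and 57.6 CPM in fasted mice and at 181, 378 and 938 CPM in refed mice. The log2 fold changes against fed were 1.24 (adjusted p = 0.026) for *Sc4mol* and 0.90 (adjusted p = 0.016) for *Fdft1*, squalene synthase (edgeR).

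The overshoot calls held with the refed mice of lower number and not with those of higher number. *Sc4mol* lay between 496 and 938 CPM in these 3 mice and between 181 and 261 CPM in the 3 of higher number, and its log2 fold change against fed was 1.79 (adjusted p = 0.0067) with the former alone and 0.30 (adjusted p = 0.71) with the latter alone (edgeR). Over the list, 9 genes were higher and 0 lower with the lower-numbered mice, against 0 higher and 2 lower with the higher-numbered ones. The difference between the series did not pass for *Sc4mol* (edgeR, adjusted p = 0.87), and the part of mouse number in the result was not tested further. Without refed mouse RF6_WT_816 alone the calls were lost for *Sc4mol* (0.88, adjusted p = 0.12) and *Fdft1* (0.63, adjusted p = 0.084), and without fed mouse ALC_WT_860 for *Sc4mol* (1.17, adjusted p = 0.055) (edgeR), so that without refed mouse RF6_WT_816 no gene of the list was called higher. Without fed mice ALC_WT_847 and ALC_WT_849 together 1 gene of the list was called higher, and *Sc4mol* (1.32, adjusted p = 0.058) did not pass (edgeR). *Mvk*, mevalonate kinase, had a log2 fold change of 0.82 (adjusted p = 0.063) and passed without refed mouse RF6_WT_896 (0.93, adjusted p = 0.044) or RF6_WT_900 (0.98, adjusted p = 0.028) (edgeR). *Nsdhl*, of sterol decarboxylation, was at -0.36 (adjusted p = 0.55, edgeR) and *Srebf2*, which encodes SREBP2, at 0.00 (adjusted p = 1.0, edgeR). *Ebp*, a sterol isomerase, was called lower (-0.28), though not with the lower-numbered refed mice alone (-0.16, adjusted p = 0.23, edgeR).

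About as many glucose production and insulin signalling genes were lower than in fed mice as were not called. Of 23 tested genes of gluconeogenesis, glucagon and FOXO action, 11 were lower and 0 higher, with a median log2 fold change of -0.40 beside 0.036 on fasting, and 8 of them were new on refeeding. *G6pc*, the glucose-6-phosphatase that releases glucose, lay at 100, 539 and 1604 CPM in fed mice and at 109, 183 and 271 CPM in refed mice, so that the refed mice overlapped only the lowest part of the fed range (-1.75, SE 0.47, adjusted p = 0.0058, edgeR), and with the higher-numbered refed mice alone it did not pass (-1.53, adjusted p = 0.091, edgeR). *Igfbp1*, an insulin-repressed binding protein, lay at 13.4, 15.5 and 127 CPM in fed mice and at 3.71, 6.12 and 11.2 CPM in refed mice (-2.37, adjusted p = 0.017, edgeR). Fed mouse ALC_WT_860 gave the highest value of both genes, and without it *Igfbp1* was at -1.36 and did not pass (edgeR, adjusted p = 0.16).

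Of 30 tested insulin signalling genes, 15 were lower and 1 higher, 12 of them new on refeeding. *Insr*, the insulin receptor, lay at 194, 213 and 218 CPM in fed mice and at 134, 148 and 160 CPM in refed mice, with no overlap (-0.51, SE 0.09, adjusted p = 4.9e-05, edgeR). The adaptor *Grb10* (-0.93) and the transcription factor *Foxo3* (-0.55) were also lower. With a correction for gene length and GC content 6 genes of this list were lower, and with the higher-numbered refed mice alone 7. *Pik3r1* itself lay at 119, 132 and 158 CPM in fed mice, at 82.4, 94.3 and 106 CPM in fasted mice and at 116, 124 and 139 CPM in refed mice, and had returned (refed against fed -0.10, adjusted p = 0.49, edgeR). *Pygl*, liver glycogen phosphorylase, was between 550 and 824.9 CPM in fed mice, 311 and 390.0 CPM in fasted mice and 277 and 392 CPM in refed mice, and had not recovered (-0.97).

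**Figure D3:**
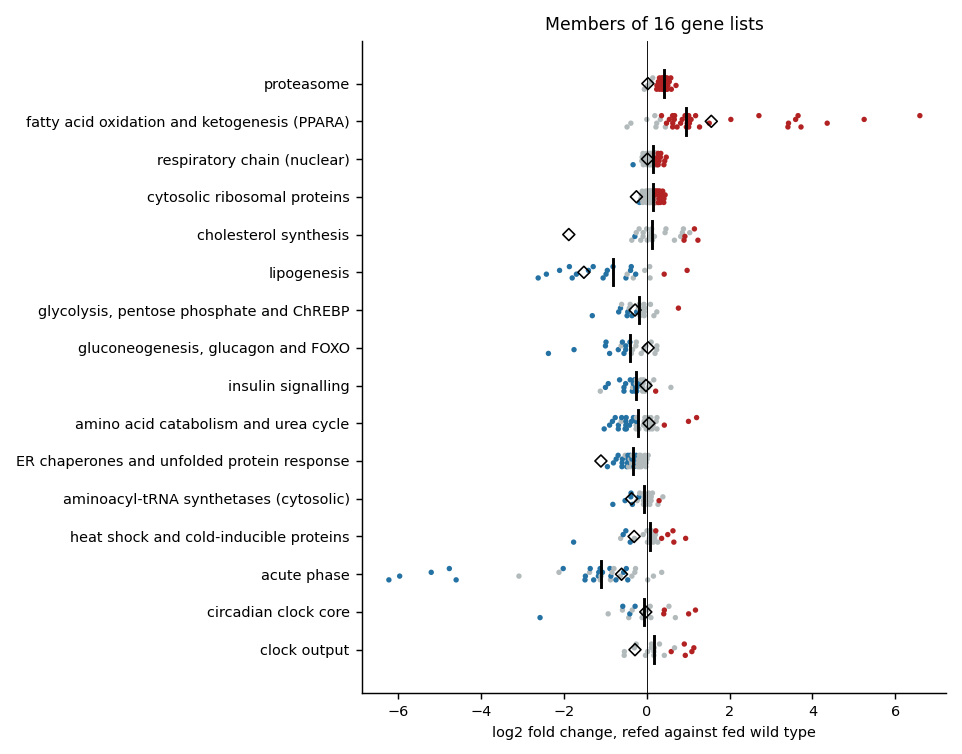
Log2 fold change in refed against fed wild-type mice for each tested member of 16 gene lists (points, red where called higher, blue where called lower, grey where not called), with the list's median as a bar and its median on fasting as a diamond. The bar lies at 0.42 for the proteasome, whose fasting median was 0.030, and at 0.14 for cholesterol synthesis, whose fasting median was -1.88.

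Most proteasome genes were higher in refed than in fed mice. Of 34 tested, 30 were higher and 0 lower in refed than in fed mice, with a median log2 fold change of 0.42, against 0.030 on fasting, and 28 showed no overlap between refed and fed mice. In 21 of them the change was new on refeeding. *Psma7*, a subunit of the 20S core (chr2:180036373-180042433, minus strand), lay at 67.3, 70.8 and 72.9 CPM in fed mice, at 76.5, 81.3 and 94.1 CPM in fasted mice and at 102, 117 and 126 CPM in refed mice (0.71, SE 0.06, adjusted p = 2.5e-10, edgeR). *Psmb4*, another core subunit, lay at 101, 106 and 109 CPM in fed mice, at 108, 113 and 129 CPM in fasted mice and at 151, 162 and 166 CPM in refed mice (0.60, SE 0.06, adjusted p = 2.1e-09, edgeR). *Psmc6*, an ATPase of the 19S cap, lay at 78.5, 81.3 and 87.8 CPM in fed mice and at 114, 123 and 132 CPM in refed mice (log2 fold change 0.58), and the ubiquitin receptor *Psmd4* was higher by 0.51. For the first 3 genes the refed mice were above all fed and all fasted mice. The count stayed between 27 and 31 higher and at 0 lower under scaling by library size, the length and GC correction, either series of refed mice alone and without fed mice ALC_WT_847 and ALC_WT_849.

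Cytosolic ribosomal protein genes were higher by less. Of 79 tested, 49 had fallen on fasting; after refeeding 29 were higher and 1 lower than in fed mice, with a median log2 fold change of 0.16, 36 had returned, 12 had overshot and 17 were new. *Rpl36* (0.45) and *Rps19* (0.42) were called higher and new on refeeding. With the length and GC correction 7 were higher and 6 lower, and with the higher-numbered refed mice alone 5 were higher and 1 lower, and without refed mouse RF6_WT_828 alone 17 were higher and 2 lower. Of 47 nuclear respiratory chain genes, 16 were higher, among them *Cox7c*, a subunit of cytochrome oxidase (0.47), and 1 was lower. The counts were 5 and 2 with that correction, 6 and 0 with the higher-numbered refed mice alone, 10 and 1 without fed mouse ALC_WT_847 and 6 and 1 without fed mice ALC_WT_847 and ALC_WT_849.

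Genes of the endoplasmic reticulum lay between the fasted and the fed level. Of 40 tested chaperones and unfolded protein response genes, all 40 had fallen on fasting, with a median log2 fold change of -1.10; after refeeding 18 were lower than in fed mice and 0 higher, the median was -0.33, 18 had returned and 4 were undecided. *Edem1*, which extracts misfolded glycoproteins, lay at 290, 353 and 393 CPM in fed mice, at 164, 173 and 183 CPM in fasted mice and at 176, 199 and 218 CPM in refed mice (-0.80, SE 0.08, adjusted p = 1.0e-09, edgeR). *Spcs3*, a signal peptidase subunit, lay at 106, 112 and 118 CPM in fed mice, at 46.8, 51.2 and 53.9 CPM in fasted mice and at 77.0, 81.1 and 86.4 CPM in refed mice (-0.46), with 59.2% of its fall reversed. For both genes the refed mice lay below every fed mouse. *Spcs2* (-0.59), the coat protein *Sec24d* (-0.59) and *Xbp1*, the transcription factor of the unfolded protein response (-0.41), were also lower, and *Xbp1* did not pass without fed mice ALC_WT_847 and ALC_WT_849 (-0.23, adjusted p = 0.11, edgeR). In WT/Y657* mice 15 of the 40 were higher and 5 lower in refed than in fed mice, with a median of 0.12. The difference between genotypes itself passed for 3 of the 40, against 0.179% of all genes. It passed for 0 of all genes without fed mice ALC_WT_847 and ALC_WT_849 together, and for 0 and 1 with the lower-numbered and higher-numbered refed mice alone.

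Heat shock and cold-inducible genes divided by member. Of 26 tested, 6 were higher and 4 lower in wild-type mice, beside 13.2% higher and 14.3% lower over all tested genes. *Hspe1*, the mitochondrial chaperonin HSP10, lay at 99.2, 108 and 128 CPM in fed mice, at 69.7, 80.7 and 101 CPM in fasted mice and at 135, 153 and 185 CPM in refed mice, and had overshot with no overlap between refed and fed mice (0.51, SE 0.10, adjusted p = 0.00014, edgeR). *Rbm3*, a cold-inducible RNA-binding protein, was higher by 0.94, and *Hspa4l*, an HSP110 family chaperone, was lower (-0.57). In WT/Y657* mice 14 of the 26 were higher and 0 lower, with a median of 0.40 beside 0.077 in wild-type mice. The difference between genotypes passed for 3 of the 26, against 0.179% of all genes, and for 0 of all genes without fed mice ALC_WT_847 and ALC_WT_849. Of 23 cytosolic aminoacyl-tRNA synthetases, 18 had fallen on fasting in wild-type mice and 10 had returned, with 6 lower and 1 higher than in fed mice. Called in either direction, this is a share near the 27.5% over all tested genes. *Tars*, the threonyl synthetase, lay at 149, 186 and 203 CPM in fed mice, at 108, 119 and 143 CPM in fasted mice and at 74.4, 105 and 124 CPM in refed mice (-0.82, SE 0.10, adjusted p = 1.6e-07, edgeR), and had moved further from fed since the fast by a called step of -0.28.

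The promoters of *Hspe1* and *Tars* are shown because each holds the element after which its list's regulator is known, marked in capitals. They were read from RefSeq on GRCm38.p6, 250 bases before to 50 after the gene's start, 5′ to 3′ on the gene's strand, and chosen after the values were seen. *Hspe1* (chr1:55087898-55088197, plus strand) holds 1 heat shock match, GAANNTTC, and *Tars* (chr15:11399609-11399908, minus strand) 1 C/EBP-ATF response element (CARE), TGATGCAA, each searched on both strands.
Hspe1: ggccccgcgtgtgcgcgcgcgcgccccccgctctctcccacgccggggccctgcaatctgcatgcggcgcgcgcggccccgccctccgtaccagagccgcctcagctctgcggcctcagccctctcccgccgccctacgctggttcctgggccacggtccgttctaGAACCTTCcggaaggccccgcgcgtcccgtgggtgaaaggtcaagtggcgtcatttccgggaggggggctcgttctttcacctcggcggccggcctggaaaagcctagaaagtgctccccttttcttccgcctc
Tars: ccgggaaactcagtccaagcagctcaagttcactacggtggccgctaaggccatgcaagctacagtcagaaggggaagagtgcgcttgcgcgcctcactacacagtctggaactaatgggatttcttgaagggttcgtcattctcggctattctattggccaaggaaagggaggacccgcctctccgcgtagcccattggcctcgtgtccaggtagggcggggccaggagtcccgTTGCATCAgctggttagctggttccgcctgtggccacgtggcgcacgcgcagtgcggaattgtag
The heat shock match stood in 47.4% of the 19 promoters of the heat shock list and in 7.95% of all 27025 promoters in the table, and CARE in 26.7% of 15 synthetase promoters and in 0.929% of all. Among tested genes with a promoter the shares were 5.78% and 0.66%. The heat shock match stood in 4.97% of genes called higher and 6.17% of genes called lower in refed mice. For CARE these were 0.769% and 0.738%. A match describes the letters alone, and no test was made of these shares.

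Acute-phase genes were lower in refed than in fed mice, and this rested in large part on some fed mice. Of 35 tested, 20 were lower and 0 higher, with a median log2 fold change of -1.10. *Saa2*, serum amyloid A2, lay at 118, 889 and 4766 CPM in fed mice and at 3.70, 6.82 and 106 CPM in refed mice. Fed mice ALC_WT_847 (4766 CPM), ALC_WT_849 (3875 CPM) and ALC_WT_856 (1444 CPM) were highest, refed mouse RF6_WT_828 (106 CPM) stood above the other refed mice, and the groups did not overlap (-6.22, SE 1.46, adjusted p = 0.0018, edgeR). *Mt1*, metallothionein 1, was at 266 and 271 CPM in fed mice ALC_WT_847 and ALC_WT_849 and between 2.06 and 5.86 CPM in the 4 other fed mice, and the refed mice ranged from 2.07 to 5.61 CPM. *Fga*, fibrinogen α, lay at 4791, 5858 and 11015 CPM in fed mice and at 2691, 2780 and 3821 CPM in refed mice (-1.28, SE 0.19, adjusted p = 4.4e-06, edgeR), and *Fgb* (-1.16) and *Fgg* (-1.17) were lower with it. Without fed mice ALC_WT_847 and ALC_WT_849 together, 9 genes of the list were lower and 1 higher, *Mt1* was at 0.17 (adjusted p = 0.90), and *Fga* (-0.87, adjusted p = 0.00020) and *Saa2* (-4.48, adjusted p = 0.018) were still called lower (edgeR), although *Saa2* did not pass with the lower-numbered refed mice alone (-5.345, adjusted p = 0.052). In limma-voom *Mt1* (adjusted p = 0.23) and *Mt2* (adjusted p = 0.21) did not pass with all mice. *Mt2*, called with all mice (-5.96), was then at -1.19 (edgeR, adjusted p = 0.49). In WT/Y657* mice the median of the list was -0.0099, with 3 higher and 4 lower. *Saa2* and its neighbours are close copies, and their division is uncertain.

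Clock genes showed both directions. In 19 tested core genes 4 were higher and 4 lower, and of 19 tested output genes 5 were higher and 0 lower. Over all tested genes 27.5% were called, 13.2% higher and 14.3% lower, and the output share lies near that total. *Clock*, the activator, lay at 69.5, 82.4 and 94.8 CPM in fed mice and at 45.5, 55.2 and 62.5 CPM in refed mice, with no overlap (-0.58, SE 0.09, adjusted p = 4.5e-06, edgeR). *Npas2*, its paralogue, lay at 0.280, 0.568 and 0.741 CPM in fed mice, at 0.362, 1.14 and 3.09 CPM in fasted mice and at 0, 0.102 and 0.206 CPM in refed mice, a low level in every state (-2.57, SE 0.72, adjusted p = 0.0065, edgeR). *Arntl*, the partner of both, lay at 3.23, 5.35 and 10.8 CPM in fed mice and at 1.42, 3.50 and 4.40 CPM in refed mice (-0.93, adjusted p = 0.10, edgeR). The refed median was the lowest of the 3 states for each of these activators, and refed and fed mice overlapped for *Arntl* alone. With the lower-numbered refed mice alone *Npas2* did not pass (-1.84, adjusted p = 0.14, edgeR).

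Several clock repressors and outputs lay the other way, while *Nr1d1*, *Bhlhe40* and *Upp2*, given below, had negative values as the activators did. *Per3* lay at 13.6, 22.6 and 30.1 CPM in fed mice and at 36.6, 43.9 and 57.1 CPM in refed mice (1.01, SE 0.37, adjusted p = 0.041, edgeR), and *Gm129* (now *Ciart*), a repressor of the activator pair, at 2.12, 5.42 and 9.45 CPM in fed mice and at 11.5, 12.2 and 17.9 CPM in refed mice (1.18, SE 0.40, adjusted p = 0.026, edgeR). Neither overlapped between the states. The call of *Per3* was nevertheless lost on leaving out fed mouse ALC_WT_848, ALC_WT_849, ALC_WT_850 or ALC_WT_860 or refed mouse RF6_WT_815, RF6_WT_828, RF6_WT_900 or RF6_WT_901, with adjusted p up to 0.090, and that of *Gm129* without fed mouse ALC_WT_848, ALC_WT_850 or ALC_WT_860 or refed mouse RF6_WT_901, with adjusted p up to 0.066 (edgeR). *Nampt*, of NAD synthesis, lay at 57.7, 69.5 and 80.7 CPM in fed mice and at 113, 130 and 156 CPM in refed mice (0.91, adjusted p = 4.1e-07, edgeR), and *Tfrc*, the transferrin receptor, at 43.0, 60.5 and 82.0 CPM and at 97.7, 120 and 140 CPM (0.93, adjusted p = 9.7e-06, edgeR). *Dbp*, a clock-driven activator, lay at 24.6, 33.1 and 43.5 CPM in fed mice and at 44.2, 53.8 and 65.2 CPM in refed mice without overlap, yet did not pass in the fit over all 36 libraries (0.67, adjusted p = 0.31) and did in a fit to the 12 libraries alone (0.67, adjusted p = 0.0015) (edgeR). The fasted mice, which enter the former fit, lay between 3.72 and 13.2 CPM for *Dbp* in the 3 of lower number and between 33 and 42.5 CPM in the 3 of higher number.

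*Wee1* (1.14), *Usp2* (1.09) and *Por* (0.59) were called higher among the outputs, and *Rora* (-0.41) and *Csnk1d* (-0.28) lower in the core. With a correction for length and GC content *Rora* was at -0.14 (adjusted p = 0.30), with the lower-numbered refed mice alone *Usp2* (0.96, adjusted p = 0.097) and *Wee1* (1.06, adjusted p = 0.056) did not pass, and without fed mice ALC_WT_847 and ALC_WT_849 together *Usp2* did not (1.02, adjusted p = 0.055) (edgeR). *Csnk1e* (0.41, adjusted p = 0.035) was called higher, with adjusted p up to 0.11 without 1 of fed mice ALC_WT_848, ALC_WT_849, ALC_WT_850 and ALC_WT_856 or refed mice RF6_WT_815, RF6_WT_828 and RF6_WT_901 (edgeR). *Per2* (0.54), *Per1* (0.69), *Nr1d1* (-0.58), *Tef* (0.31), *Bhlhe40* (-0.35) and *Upp2* (-0.54) did not pass in the fit over 36 libraries, while *Per1* did without fed mouse ALC_WT_856 (0.94, adjusted p = 0.032), and *Per2* (adjusted p = 0.011), *Nr1d1* (adjusted p = 0.0055), *Tef* (adjusted p = 0.029) and *Arntl* (adjusted p = 0.036) did in the fit to 12 libraries (edgeR).

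**Figure D4:**
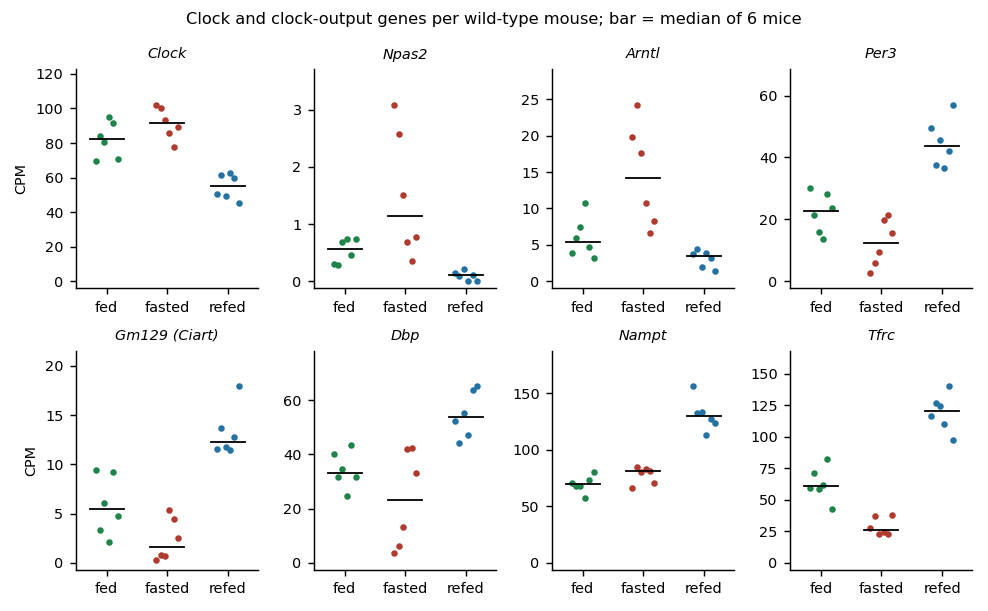
CPM of 8 clock and clock-output genes in each of 6 fed, 6 fasted and 6 refed wild-type mice on linear axes, with mice in order of number from left to right in each state and a bar at the median. Refed mice are lowest for *Clock* (median 55.2 CPM) and highest for *Nampt* (130 CPM) and *Tfrc* (120 CPM), while for *Dbp* the 3 fasted mice of lower number (3.72 to 13.2 CPM) lie apart from the 3 of higher number (33 to 42.5 CPM).

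The promoters of *Ciart* (chr3:95882179-95882478, minus strand) and *Per3* (chr4:151044616-151044915, minus strand) are shown for the clock elements they hold, from the same RefSeq table and windows. Capitals mark 3 E-boxes, CACGTG, in *Ciart*, and 2 D-boxes, TTACGTAA or TTATGTAA, in *Per3*, searched on both strands. The E-box and D-box are the known sites of the CLOCK and DBP families.
Ciart: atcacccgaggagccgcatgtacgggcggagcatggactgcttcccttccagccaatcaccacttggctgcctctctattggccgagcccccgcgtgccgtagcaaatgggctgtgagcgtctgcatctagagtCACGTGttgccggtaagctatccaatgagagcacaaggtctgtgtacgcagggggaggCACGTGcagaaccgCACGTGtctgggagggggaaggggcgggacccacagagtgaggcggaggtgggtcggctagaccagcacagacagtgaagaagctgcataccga
Per3: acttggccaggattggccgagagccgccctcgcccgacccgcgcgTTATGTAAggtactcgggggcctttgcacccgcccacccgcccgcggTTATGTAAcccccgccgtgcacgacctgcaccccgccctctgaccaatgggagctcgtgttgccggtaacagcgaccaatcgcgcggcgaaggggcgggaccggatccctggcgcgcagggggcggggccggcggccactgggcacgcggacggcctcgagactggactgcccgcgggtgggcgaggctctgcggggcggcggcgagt
An E-box stood in 7.24% of all 27025 promoters in the table and a D-box in 1.06%. A promoter was found for 10457 tested genes (75.0%), and among these an E-box stood in 10.2% of all, 11.4% of the genes that had not recovered, 9.94% of those that had returned, 13.4% of those that had overshot and 11% of those new on refeeding. No test was made of these shares.

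Apart from lipogenic genes, the lower genes of largest size without overlap included *Moxd1*, a monooxygenase-like protein (chr10:24223517-24302790, plus strand), at 5.66, 148 and 390 CPM in fed mice and at 0.0675, 0.654 and 1.85 CPM in refed mice (-7.67, SE 1.43, adjusted p = 0.00016, edgeR), a difference that did not pass in limma-voom (adjusted p = 0.079). *Selenbp2*, a selenium-binding protein with a close copy in the genome, lay at 582, 834 and 1420 CPM in fed mice, at 6.44, 28 and 61.9 CPM in fasted mice and at 71.3, 83.1 and 107 CPM in refed mice, and the refed mice were above all fasted and below all fed mice (-3.36). The retinol dehydrogenase *Dhrs9* (-3.14), the ferritin receptor *Scara5* (-2.92), the lipid-binding *Fabp5* (-2.88) and the glucuronosyltransferases *Ugt2b37* (-2.86) and *Ugt2b38* (-2.70), which are close copies, were also lower. All of these had fallen on fasting and had not recovered.

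Single bile acid genes and a larger part of the amino acid genes differed. *Abcb11*, the bile salt export pump, lay at 935, 1156 and 1259 CPM in fed mice, at 481, 562 and 636 CPM in fasted mice and at 430, 485 and 626 CPM in refed mice (-1.12, SE 0.10, adjusted p = 1.4e-10, edgeR), with every refed mouse below every fed mouse. *Cyp2c70*, which makes muricholic acids, was lower (-2.10), the phospholipid exporter *Abcb4* higher by 0.61, and the nuclear receptor *Nr1i3* (CAR) higher by 1.94. In the bile acid list 2 of 23 were higher and 4 lower, a share near the 27.5% called over all genes, and *Slc27a5* (-0.45), the bile acid CoA ligase, was new on refeeding. Of 40 amino acid catabolism and urea cycle genes, 16 were lower and 3 higher. *Cps1*, the entry enzyme of the urea cycle, lay at 5999, 7109 and 7843 CPM in fed mice, at 3630, 4306 and 5336 CPM in fasted mice and at 3019, 3336 and 4324 CPM in refed mice (-1.02, SE 0.15, adjusted p = 4.4e-06, edgeR), and *Otc* (-0.68) and *Prodh* (-0.76) were lower, while *Mat1a*, of S-adenosylmethionine synthesis, was higher by 1.21. In the growth hormone and IGF1 list 5 of 29 were higher and 4 lower, among them *Igfbp2* (1.1) and *Stat5b* (-0.50), again a share near that over all genes.

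Genes that had overshot included *Fam65b* (now *Ripor2*), at 3.82, 6.45 and 8.61 CPM in fed mice, 1.61, 2.48 and 3.02 CPM in fasted mice and 11.7, 15.8 and 21.7 CPM in refed mice (1.27, SE 0.17, adjusted p = 5.1e-07, edgeR). *Rnf125*, a ubiquitin ligase, took the other direction, at 54.3, 72.2 and 101 CPM in fed mice, 117, 156 and 189 CPM in fasted mice and 29.6, 37.9 and 43.3 CPM in refed mice (-0.99, SE 0.16, adjusted p = 1.5e-05, edgeR). The refed mice lay outside the fed range, on the side away from the fasted mice, for both. The mitochondrial ribosomal protein gene *Mrpl50* (0.45), the ligase *Trim25* (-0.64) and the glycerol phosphate acyltransferase *Agpat6* (now *Gpat4*, -0.68) had overshot as well. Among genes new on refeeding, *Tmem37*, a calcium channel-like subunit, lay at 35.5, 41.9 and 45.3 CPM in fed mice, 42.3, 46.8 and 50.4 CPM in fasted mice and 65.9, 71.3 and 77.2 CPM in refed mice (0.79, SE 0.07, adjusted p = 8.6e-10, edgeR). *Srsf2*, a splicing factor (0.68), and *Hagh*, a glyoxalase (0.61), were higher and *Zhx3*, a zinc finger homeobox repressor (-0.67), and *Mug2*, a protease inhibitor (-1.14), lower.

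Some proliferation and matrix genes were lower in refed mice. Of 31 tested cell cycle genes 4 were lower and 0 higher, no larger a share than the 14.3% of all tested genes called lower. Among the 4 were *Mki67* (-1.53), *Rrm2* (-1.13) and *Top2a* (-1.22, not passing without refed mouse RF6_WT_900 or RF6_WT_901 or without fed mice ALC_WT_847 and ALC_WT_849, adjusted p up to 0.054, edgeR). Of 10 stellate cell and fibroblast markers 4 were lower and 0 higher, including *Col1a1* (-2.31) and *Col3a1* (-1.53), and the summed level of that list was 400 to 596 CPM in fed mice and 428 to 574 CPM in refed mice. Of 9 hepatocyte markers 4 were lower and 0 higher, and their sum was 86909 to 103816 CPM in fed and 71024 to 95037 CPM in refed mice. Of 10 Kupffer cell markers 1 was higher (sums of 282 to 409 and 292 to 646 CPM), of 10 endothelial markers 1 was higher and 1 lower (398 to 506.3 and 388 to 524 CPM), and of 5 tested cholangiocyte markers 2 were lower (31.6 to 80.5 and 20.4 to 31.4 CPM). No tested lymphocyte (5) or neutrophil (2) marker passed in edgeR, 1 of 3 adipocyte markers was higher and 1 of 6 red cell markers lower, and exocrine pancreas markers were below the filter with 3 of 7 at 0 in all 12 mice. The part of cell makeup in the results above was not tested, and in whole liver fewer cells of a type and less RNA per cell cannot be told apart.

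Other lists showed calls in both directions or few calls. Their counts stand beside 27.5% called over all tested genes, 13.2% higher and 14.3% lower, and no list was tested as a set. Of 35 autophagy and lysosome genes 6 were higher and 10 lower, of 28 genes of the NRF2 and glutathione list 9 were higher and 3 lower, and of 28 drug-metabolizing P450 genes and their regulators 6 were higher and 4 lower. Of 35 translation factors 9 were higher and 5 lower, and of 40 ribosome biogenesis and MYC growth genes 2 were higher and 3 lower, 15 of the 40 having returned. Of 23 glycolysis, pentose phosphate and ChREBP genes 1 was higher and 7 lower, and of 16 glycogen genes 2 were higher and 3 lower. Of 26 genes of the ATF4 and integrated stress response list 3 were higher and 2 lower, of 20 glucocorticoid targets 2 were higher and 5 lower, and of 26 immediate early genes 1 was higher and 5 lower. Of 33 interferon genes 1 was higher and 0 lower.

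In WT/Y657* mice, which share no mouse with the wild-type contrast, refed against fed livers differed in 3633 genes (26.1%). Of the 3839 genes called in wild-type mice, 3617 (94.2%) had the same sign there, and 2130 were called in both, which was 55.5% of the wild-type and 58.6% of the WT/Y657* calls, 2120 of them in the same direction. Over the 3839 genes the log2 fold changes had a Pearson r of 0.79 and a Spearman coefficient of 0.86, across genes, which are not independent and were chosen on the wild-type values. In WT/Y657* mice too, the fed mouse numbers lay between lower and higher refed numbers. Their second index was D504 in 5 and D505 in 1 fed library, and D505 in 3 and D506 in 3 refed libraries. Mouse number and feeding state cannot be told apart in either genotype, and the part of the index was not tested. Genes that had not recovered numbered 754 in both genotypes, those that had returned 664, those that had overshot 50 and those new on refeeding 635. Of the 34 proteasome genes 30 were higher and 0 lower in WT/Y657* mice, with a median of 0.39, and of the 40 fatty acid oxidation genes 32 were higher and 1 lower, with a median of 0.81. *Psmb4* was higher by 0.62, *Ehhadh* by 3.37 and *Tfrc* by 1.35 there, and *Scd1* had a log2 fold change of -3.06. The difference between the genotypes was called in 25 genes (0.179%), and in 1506 at an unadjusted p under 0.05. For *Rnf125* it was -1.12 and for *Hspa4l* 0.91 (edgeR, adjusted p = 0.027 for each), and neither passed without fed mouse ALC_WT_847 (adjusted p = 0.066), fed mouse ALC_WT_849 (adjusted p = 0.056) or refed mouse RF6_WT_901 (adjusted p = 0.051). The count was 1 gene without any of these mice in turn, and it was 54 without fed mouse ALC_WT_860, 15 without fed mouse ALC_WT_856, 14 without refed mouse RF6_WT_815 and 13 without refed mouse RF6_WT_900.

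**Figure D5:**
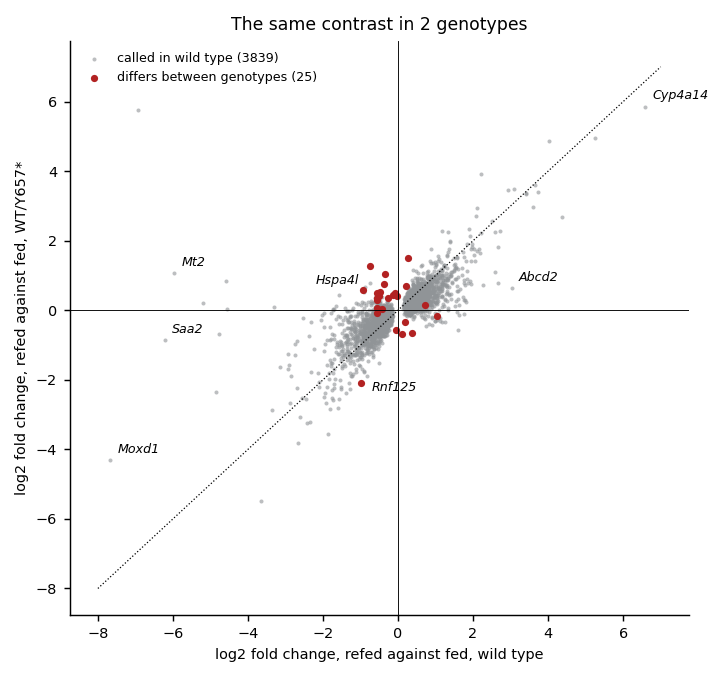
Log2 fold change in refed against fed mice in wild-type (horizontal) and WT/Y657* mice (vertical) for the 3839 genes called in wild-type mice (grey) and the 25 genes whose difference between genotypes was called (red), with 6 mice in each of 4 groups and the dotted line marking equality. Most grey points lie in the quadrants of equal sign (94.2%), and acute-phase genes such as *Saa2* lie near 0 on the vertical axis.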

How the data were processed

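RNA from 36 livers was sequenced as 50 bp single reads from stranded total RNA libraries. The authors deposited a table of estimated counts per gene, not normalized, of which 3.64% of the nonzero values were not whole; per the labels' processing notes featureCounts, Cuffdiff and edgeR were used, without versions, and whether counting used strand is not given in the sources used here. The notes name mm9, but 99.7% of the 36425 gene identifiers found in GENCODE M21 overlapped their GRCm38 position, so GRCm38 coordinates are given. A second table of fitted group means was not used. Counts were rounded, which changed no total by over 8e-05%.

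Genes were filtered with filterByExpr over 6 groups, scaled by TMM and fitted with 1 coefficient per group to all 36 libraries in edgeR 4.0.16 (R 4.3.3), with robust quasi-likelihood tests, two-sided and adjusted by Benjamini-Hochberg. On simulated data with 198 changed genes among 13813 the refed against fed test recovered 132 (66.7%), with 6 false among 138 calls. The simulation changed far fewer genes than the 3839 called in the data and held no mouse that stood apart. Its rates therefore need not hold for these data. Alternatives were other scaling and filters, edgeR's likelihood ratio test, DESeq2 1.42.0, limma-voom (limma 3.58.1), subsets of mice and a correction for length and GC content (known for 98.8% of genes). Leaving out fed mice ALC_WT_847 and ALC_WT_849 together was chosen after seeing the data.

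The named genes were the 12 largest called differences each way without overlap, at a mean of at least 1 CPM, the 4 smallest p-values per list, the 6 smallest per class at 10 CPM or more, the lipid genes the study measured, and the clock genes; predicted genes were not named, and some genes under the rule are not reported here. For the returned class they were drawn only from genes within 1.5-fold of fed, ranked by p on fasting. The members, 29 pathway lists and 10 marker lists were chosen with earlier results of these data known. Mice of a group were separate animals.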

Additional observations from a re-analysis of the deposited data

Results flagged for a closer look

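In 141 groups of 6 mice, for 47 genes in 3 states, 1 mouse stood apart from the other 5 in 11 cases, by a gap that chance gives in about 1 in 20 groups. Among fed mice these were mouse ALC_WT_860 for *Igfbp1* (127 CPM, next 31.8) and *G6pc* (1603.7 CPM, next 656), and mouse ALC_WT_856 for *Cyp4a14* (148 CPM, next 37.6). Among refed mice they were mouse RF6_WT_816 for *Acaca* (172 CPM, next 130) and *Fasn* (1045 CPM, next 610), mouse RF6_WT_828 for *Fga* (3821.1 CPM, next 2935.3) and *Saa2* (106 CPM, next 19.9), mouse RF6_WT_900 for *Fgf21* (22.7 CPM, next 2.93) and mouse RF6_WT_901 for *Gm129* (17.9 CPM, next 13.7). Fasted mouse ONF_WT_807 stood apart for *Fga* (6538.5 CPM, next 4261.3) and *Saa2* (1130 CPM, next 21.4). At about 1 in 20 groups, many of the 11 cases could arise by chance, and cases that share a mouse are not independent.

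The difference between refed and fed mice itself differed between genotypes for *Hspa4l* (0.911 on the log2 scale, WT/Y657* minus wild type) and *Rnf125* (-1.12), each with an adjusted p of 0.0271 in the quasi-likelihood test of edgeR, adjusted by Benjamini-Hochberg. Neither gene passed without fed mouse ALC_WT_847, fed mouse ALC_WT_849 or refed mouse RF6_WT_901, or with either series of refed mice alone.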

How the results depend on the processing

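No paired analysis was possible because each mouse has its own number and the groups share none. Of the genes called in the refed against fed fit, none that an alternative also called had the opposite sign there. The number called ranged from 3352 to 3677 on leaving out 1 mouse (higher 1559 to 1783, lower 1766 to 1904), that of genes not recovered from 1522 to 1674, returned from 1552 to 1625, overshot from 137 to 193 and new from 1604 to 1889. With 3 refed mice the lower-numbered ones gave 2473 called (1119 higher, 1163 new) and the higher-numbered ones 2554 (1195 higher, 1139 new, 83 overshot). Overshot genes numbered 121 with no filter and 103 without fed mice ALC_WT_847 and ALC_WT_849. Leaving out both of these fed mice gave 3055 called (1365 higher, 1690 lower), 1362 not recovered, 1527 returned and 1590 new. At an adjusted p under 0.01 the counts were 2362 for refed against fed (1077 higher, 1285 lower), 2974 for fasted against fed, 2740 for refed against fasted, 997 not recovered, 53 overshot, 2147 in WT/Y657* mice and 1 for the difference between genotypes. That difference, with 25 genes, counted 9 under scaling by library size, 15 with no filter, 53 in the likelihood ratio test, 118 in DESeq2, 0 and 1 with the lower-numbered and higher-numbered refed mice, 0 without fed mice ALC_WT_847 and ALC_WT_849 and 1 to 54 on leaving out 1 mouse; the cause was not tested. Scaling by library size moved the share of higher genes from 48.1% to 65.7% of those called, with a shift of the median by 0.078.

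Some genes changed sign, and no value of opposite sign was called. *Srebf2* was at -0.010 under DESeq2's size factors, -0.0089 with no filter, -0.0038 with at least 10 counts, -0.0092 in DESeq2, -0.021 in limma-voom, -0.0093 and -0.0051 in the fits to 18 and 12 libraries, -0.25 with the higher-numbered refed mice, and -0.096 to 0.069 on leaving out 1 mouse. *Plin2* was, in the same order but without limma-voom, at -0.0059, -0.0033, -0.00014, -0.0058, -0.0037 and -0.00038, at -0.093 with the lower-numbered refed mice, -0.081 with the length and GC correction, -0.11 without fed mice ALC_WT_847 and ALC_WT_849, and -0.052 to 0.043 on leaving out 1 mouse. *Dgat2* (-0.038) and *Nsdhl* (0.18) changed sign with the lower-numbered refed mice, *Pik3r1* (0.084) with the length and GC correction. *Mt1*, called at -4.60 with all mice, was at 0.17 without fed mice ALC_WT_847 and ALC_WT_849, which held its 2 highest fed values.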
